A study of Mus musculus with 2 samples.

Results

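Layer 5 neurons that carry *Fezf2* and *Bcl11b* RNA were taken from single-cell RNA libraries of the E16.5 mouse cortex. They were 1615 of 22347 kept cells, made up of 768 cells (7.06%) from the 10879 of embryo 4 and 847 cells (7.39%) from the 11468 of embryo 5. Exact binomial limits at 95% were 6.59 and 7.56% for the first and 6.91 and 7.88% for the second. The members were chosen by their measured UMIs (unique molecular identifiers, tags that mark single transcript molecules). A cell needed at least 1 *Fezf2* UMI, at least 3 UMIs of *Fezf2* and *Bcl11b* together and at least 3 of the excitatory neuron genes *Neurod2* and *Neurod6*. It could hold at most 2 *Hs3st4*, 4 *Unc5d*, 1 *Nr4a2*, 1 *Tfap2d*, 1 *Neurod1*, 2 *Slc1a3* and 1 *Gad1* plus *Gad2* UMIs. These limits reduce layer 6, migrating, subplate, other excitatory, newborn, glial and GABAergic cells but need not remove all of them. In embryos 4 and 5, 34.6% and 32.5% of members held *Unc5d* UMIs and 19.0% and 17.9% held *Hs3st4* UMIs. Barcodes under 1000 detected genes or above 10% mitochondrial UMIs had been left out before. The binomial limits cover counting error within an embryo only.

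*Fezf2* encodes a zinc finger transcription factor that directs cortical neurons towards the subcerebral fate, the neurons of layer 5 whose axons leave the cortex for the brainstem and spinal cord. *Bcl11b*, also called Ctip2, acts downstream of it and is needed for those axons to grow and bundle. *Tbr1* promotes the corticothalamic fate of layer 6 and represses *Fezf2*. Layer 5 also holds neurons that project within the cortex.

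Both embryos were labelled WT and titled EoMltt3 at E16.5, as controls of a line whose mutants are made with an *Eomes*-Cre driver. The mice were C57BL/6J. The labels name the tissue as brain hemispheres with the cortex dissected from it, and neither the sex of the embryos nor a Cre allele in the controls is stated. There was 1 library per embryo and 1 condition, so no treatment or genotype was compared. The libraries held 12825 and 12289 barcodes with 124318613 and 117679925 UMIs. The libraries shared 46 barcode sequences, and 0 of them belonged to layer 5 members.

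The 2 genes that define the population differ in level per cell. Members held a median of 3 *Fezf2* UMIs (range 1 to 14) in embryo 4 and 2 (1 to 12) in embryo 5. They held a median of 8 *Bcl11b* UMIs in both embryos, up to 54 and 63, and 97.4% and 98.0% of them had at least 1. *Fezf2* (ENSMUSG00000021743) lies on chromosome 14 of GRCm38 from 12338992 to 12346803, and *Bcl11b* (ENSMUSG00000048251) on chromosome 12 from 107910403 to 108004145. The *Fezf2* limits alone passed 4249 and 3927 cells. Of these, 3200 and 2944 also reached the sum of 3, the *Hs3st4* limit left 2239 and 2018, and the *Unc5d* limit left 1219 and 1229. *Fezf2* and *Bcl11b* RNA were thus shared with cells that the other limits kept out.

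The members were deep cells, with medians of 13266.5 and 11170 UMIs and 4097.5 and 3697 detected genes, against medians of 10329 and 9199 UMIs over all kept cells. Of them, 22 (2.86%) and 35 (4.13%) were among the barcodes with the highest doublet scores, and no doublet was removed in the values that follow.

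To place the layer 5 neurons among their neighbours, UMIs were summed per embryo in them and in 3 other gates that used the same remaining limits. *Hs3st4*-high neurons (at least 3 *Hs3st4* UMIs, a layer 6 gene) numbered 813 and 830. *Unc5d*-high neurons (at least 5 *Unc5d* UMIs, a gene of migrating neurons) numbered 1690 and 1645. *Fezf2*-/Bcl11b- neurons, excitatory cells with 0 UMIs of both genes, numbered 200 and 267. Levels are given as CPM, the UMIs of a gene scaled to 1000000 UMIs in the sum, with embryo 4 before embryo 5, and are not scaled for gene length. Differences are log2 fold changes, layer 5 minus the other gate, with the standard error (SE) and the Benjamini-Hochberg adjusted p of edgeR's quasi-likelihood test over 14726 genes. The p-values rest on the spread between these 2 embryos within gates, shared over the 4 gates and in part over genes. The main fit did not use the pairing of the sums by embryo. The 12 genes of the gates were not tested. Genes that vary with them are moved by the gates as well, so the calls describe the gated cells.

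The gate genes themselves were as the limits set them. *Fezf2* was at 251 and 241 CPM in layer 5 and at 233 and 220.3 CPM in *Hs3st4*-high neurons. *Bcl11b* was at 708 and 754 CPM in layer 5 and higher, at 953 and 1008 CPM, in *Hs3st4*-high neurons, which had no *Fezf2* or *Bcl11b* limit. In *Unc5d*-high neurons *Fezf2* stood at 61.1 and 47.3 and *Bcl11b* at 375 and 417 CPM. *Hs3st4*, which the gates used, was at 19.5 and 21.5 against 1733 and 1854 CPM.

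**Figure D1:**
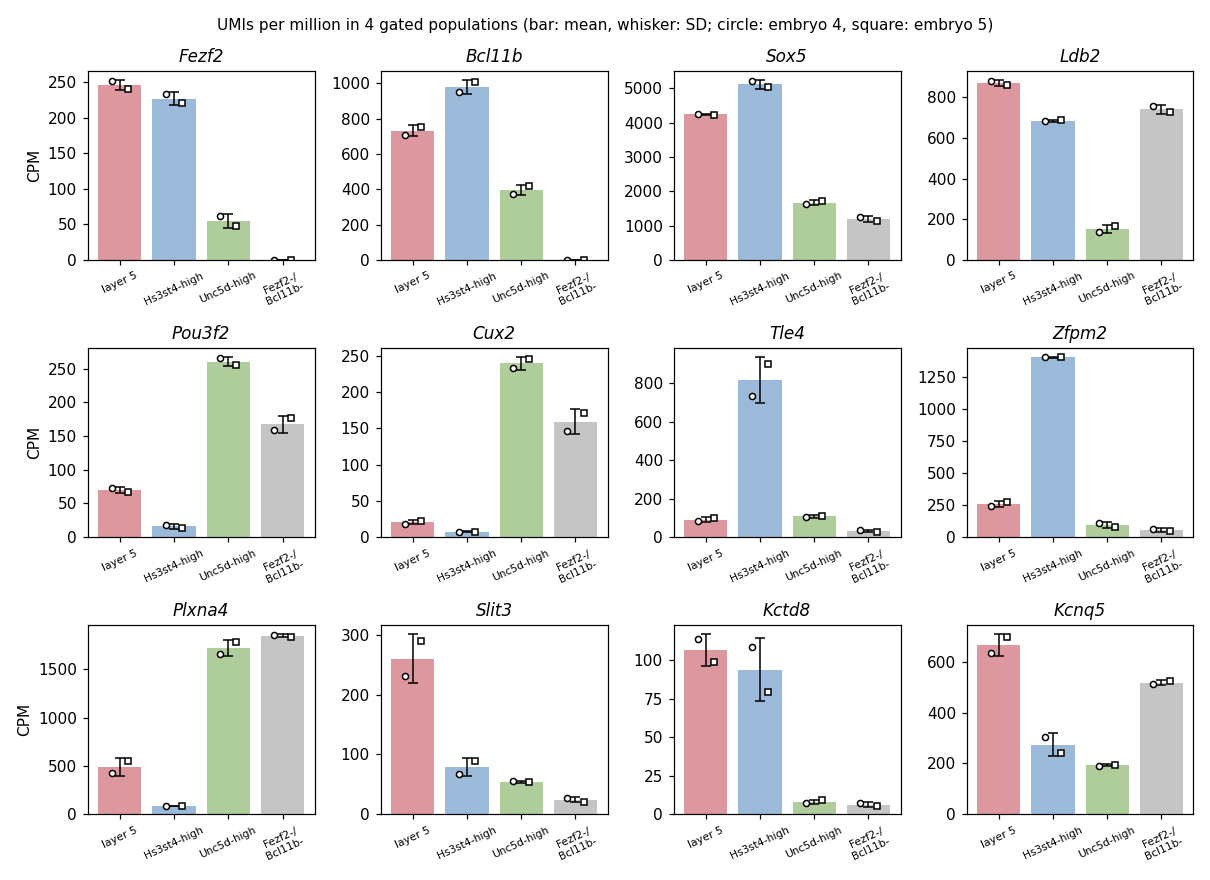
Levels in CPM (vertical axes starting at 0) of 12 genes in the sums of the 4 gates. Bars are means and whiskers SDs over the 2 embryos (circle, embryo 4; square, embryo 5). *Fezf2* and *Bcl11b* were used by the gates; *Pou3f2*, *Cux2* and *Plxna4* of layer 5 lie between the *Hs3st4*-high and the *Unc5d*-high neurons, and *Slit3* and *Kcnq5* are highest in layer 5.

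The label was checked against 18 other genes of subcerebral projection neurons, of which 17 were tested. Against *Unc5d*-high neurons 7 were higher, 6 lower and 4 not called, with a median log2 fold change of 0.40. Against *Fezf2*-/Bcl11b- neurons 8 were higher, 4 lower and 5 not called (median 0.33), and against *Hs3st4*-high neurons 5 were higher, 5 lower and 7 not called (median 0.16). Over all genes tested, 17.7% were higher and 16% lower in the first comparison, 8.88% and 9.5% in the second and 8.86% and 9.11% in the third, with medians of -0.01 to 0.00. The list therefore moved in both directions, and its members have to be read gene by gene.

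*Sox5*, a factor that times the production of deep-layer neurons, was at 4246 and 4236 CPM in layer 5, 1621 and 1722 in *Unc5d*-high and 1244 and 1121 in *Fezf2*-/Bcl11b- neurons. Its log2 fold change was 1.42 (SE 0.0642, adjusted p = 2.48e-08) against the first and 1.94 (SE 0.0659, adjusted p = 1.84e-08) against the second. *Hs3st4*-high neurons had more, at 5215 and 5034 CPM (-0.31, adjusted p = 0.00501). *Ldb2*, a LIM-domain cofactor of subcerebral neurons, was highest in layer 5, at 881 and 859 CPM against 682 and 687 in *Hs3st4*-high, 139 and 164 in *Unc5d*-high and 756 and 726 in *Fezf2*-/Bcl11b- neurons. The groups did not overlap in any of these comparisons, and the log2 fold changes were 0.31 ± 0.0806, 2.60 ± 0.0859 and 0.33 ± 0.0821. *Crym*, which encodes a thyroid hormone binding protein of subcerebral neurons, was low but nearly restricted to the deep-layer gates, with 220 and 208 UMIs in layer 5 (21.5 and 20.9 CPM), 19 and 27.4 CPM in *Hs3st4*-high and 3.27 and 1.99 CPM in *Unc5d*-high neurons, and 1 and 0 UMIs in *Fezf2*-/Bcl11b- neurons.

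Other members were lower in layer 5 in at least 1 comparison. *Etv1*, an ETS factor gene that marks layer 5, was at 6.25 and 2.41 CPM and lower than in *Fezf2*-/Bcl11b- neurons, which had 31 and 22.1 CPM (-2.50 (SE 0.336, adjusted p = 0.00031)). *Otx1*, a homeodomain factor of deep layers, was at 6.64 and 6.04 CPM against 18.9 and 16 in *Unc5d*-high neurons (-1.38 (SE 0.146, adjusted p = 2.19e-05)). *Pcp4*, a calmodulin regulator that marks adult subcerebral neurons, was at 50.1 and 66.6 CPM, below both *Hs3st4*-high (113 and 129) and *Unc5d*-high neurons (143 and 157), with log2 fold changes of -1.09 ± 0.12 and -1.28 ± 0.118. It exceeded *Fezf2*-/Bcl11b- neurons, at 40.9 and 38.6 CPM (0.65 (SE 0.164, adjusted p = 0.0167)). *Opn3* had under 1 CPM in layer 5 (0.879 and 0.905) and was not tested.

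Compared with *Hs3st4*-high neurons, layer 5 neurons carried more RNA of most callosal and upper-layer genes and less of nearly all corticothalamic genes. In this comparison 1305 genes were higher (8.86% of those tested) and 1342 lower (9.11%), with 311 and 483 of them past 2-fold. Of 20 callosal and upper-layer genes tested, 12 were higher, 6 lower and 2 not called (median 0.92). *Pou3f2*, a POU factor of upper-layer neurons, was at 73.5 and 66.2 CPM in layer 5 and 18.4 and 13.4 in *Hs3st4*-high neurons (2.09 (SE 0.123, adjusted p = 5.59e-07)). *Cux2* stayed low in both gates, at 18.3 and 22.3 and 7.57 and 6.65 CPM, with a log2 fold change of 1.47 ± 0.147. The 6 that were lower were *Gfra2*, *Rorb*, *Lpl*, *Plxnd1*, *Tmtc4* and *Chn2*, and the nuclear receptor gene *Rorb* had 141 and 194 against 415 and 406 CPM (-1.33 ± 0.127). *Plxnd1*, *Tmtc4*, *Lpl* and *Chn2* each lost the call under at least 1 alternative processing.

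Of 13 corticothalamic genes tested, 0 were higher, 12 lower and 1 not called (median -1.24, all genes 8.86% and 9.11%). The gates divide cells by *Hs3st4*, an untested gene of the same list, so genes that vary with it are moved by the gates. *Tle4*, a corepressor of corticothalamic neurons, was at 82.4 and 99.6 CPM in layer 5 and 734 and 903 in *Hs3st4*-high neurons (-3.21 (SE 0.128, adjusted p = 8.13e-08)). *Zfpm2*, also called Fog2, was at 242 and 273 against 1399.5 and 1403 CPM (-2.48 (SE 0.139, adjusted p = 3.62e-07)). *Foxp2*, a forkhead factor of layer 6, was at 142 and 151 against 807 and 658 CPM (-2.36 (SE 0.107, adjusted p = 8.97e-08)). *Tbr1* was at 102 and 97.3 against 246 and 214 CPM (-1.24 (SE 0.0873, adjusted p = 1.88e-06)), so it was reduced but present in the layer 5 sums. *Thsd7b* was the gene of the list not called, at 12.1 and 13.2 CPM in layer 5.

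The 10 genes with the largest increase over *Hs3st4*-high neurons, among those with at least 50 CPM in the higher gate, were *Stxbp6*, *Nr2f2*, *Slc4a4*, *Pou3f1*, *Plxna4*, *Tafa1*, *Gabra2*, *Nrp1*, *Syt4* and *Wwc1*, with log2 fold changes from 2.34 to 3.01. *Stxbp6*, which encodes the SNARE-binding protein amisyn, was at 64.5 and 63.1 against 8.77 and 6.55 CPM (3.01 (SE 0.16, adjusted p = 2.5e-07)). It was also higher than in the other gates, by 2.19 ± 0.137 against *Unc5d*-high and 1.53 ± 0.182 against *Fezf2*-/Bcl11b- neurons. *Gabra2*, a subunit of the GABA-A receptor, was at 196 and 185 against 30.2 and 35.8 CPM (2.49 (SE 0.137, adjusted p = 3.33e-07)). *Nr2f2*, a nuclear receptor gene known as COUP-TFII, was at 65.6 and 74.5 against 12.8 and 8.94 CPM (2.64 (SE 0.23, adjusted p = 1.03e-05)).

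The 10 with the largest decrease were *Ttr*, *Dpp10*, *Tmem132d*, *Pdzrn4*, *Necab1*, *Tle4*, *Prickle1*, *Pdzd2*, *Cntnap5b* and *Nxph3*. *Dpp10*, an auxiliary protein of Kv4 potassium channels, was at 21.5 and 23.4 CPM in layer 5 and 233 and 326 in *Hs3st4*-high neurons (-3.68 (SE 0.184, adjusted p = 1.58e-07)). *Prickle1*, a planar cell polarity gene, was at 37.8 and 52.9 against 369.7 and 395 CPM (-3.12 (SE 0.137, adjusted p = 8.88e-08)), and it still exceeded *Unc5d*-high neurons, at 10.8 and 12.6 CPM. *Nxph3*, a neurexin ligand, was at 9.97 and 11.7 against 70.1 and 76.2 CPM (-2.80 (SE 0.107, adjusted p = 6.85e-08)). *Ttr*, the transthyretin gene of the choroid plexus, overlapped between the gates (1.37 and 9.15 against 3.88 and 207 CPM), and its log2 fold change of -4.36 turned to 0.25 without the barcodes of the highest doublet scores.

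Compared with *Unc5d*-high neurons, layer 5 neurons carried more RNA of most axon growth and cytoskeleton, glutamate receptor and voltage-gated channel genes and less of the intermediate progenitor and cycling markers, whereas callosal and upper-layer genes moved both ways. Here 2609 genes were higher (17.7%) and 2360 lower (16%), with 896 and 788 past 2-fold. Layer 5 cells were the deeper ones in this comparison, with medians of 13266.5 and 11170 against 9655.5 and 8434 UMIs, and the part of depth in single calls was examined only by thinning. The 10 largest increases were *Kctd8*, *Nin*, *Rgs6*, *Grik3*, *Kirrel3*, *Ndrg1*, *Mgat4c*, *Sla*, *Sgcz* and *Sybu*. *Kctd8*, an auxiliary subunit of GABA-B receptors, was at 114 and 99.1 CPM in layer 5 and 7.31 and 9.17 in *Unc5d*-high neurons (3.78 (SE 0.166, adjusted p = 1.99e-08)), and at 108 and 79.3 CPM in *Hs3st4*-high neurons, where the embryos of the gates overlapped (0.14 ± 0.135, adjusted p = 0.537). *Kirrel3*, an immunoglobulin adhesion gene, was among the abundant ones, at 2285 and 2351 against 187 and 281 CPM (3.39 (SE 0.179, adjusted p = 8.06e-08)). *Nin*, which encodes the centrosomal protein ninein, was at 319.8 and 338 against 22.3 and 32.6 CPM (3.67 (SE 0.143, adjusted p = 1.09e-08)). *Sybu*, the kinesin adaptor syntabulin, was at 167 and 157 against 20.9 and 20.6 CPM, and higher still in *Hs3st4*-high neurons, at 739 and 722 CPM.

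The 10 largest decreases were *Zfhx4*, *Kcnc2*, *Slc17a6*, *Cux2*, *Pdzrn3*, *Mfap4*, *Sstr2*, *Kif26b*, *Cdk6* and *Eomes*. *Cux2* was at 18.3 and 22.3 CPM in layer 5 and 233 and 246 in *Unc5d*-high neurons (-3.48 (SE 0.108, adjusted p = 3.21e-09)). *Cux1* followed, at 59.3 and 61.5 against 414 and 443 CPM (-2.75 (SE 0.107, adjusted p = 1.09e-08)). *Slc17a6*, the vesicular glutamate transporter VGLUT2, was at 13.9 and 11.7 against 158 and 158 CPM (-3.55 (SE 0.149, adjusted p = 1.59e-08)). All 8 intermediate progenitor and cycling markers were lower than in *Unc5d*-high and in *Fezf2*-/Bcl11b- neurons (all genes lower, 16% and 9.5%). *Eomes* was at 20.7 and 12.1 CPM in layer 5, 138 and 146 in *Unc5d*-high and 205 and 202 in *Fezf2*-/Bcl11b- neurons. Against *Hs3st4*-high neurons, 4 of these 8 markers were higher, 1 lower and 3 not called (all genes, 8.86% and 9.11%), and *Eomes* was there at 6.74 and 5.82 CPM. Of the callosal and upper-layer list, 9 were lower, 5 higher and 6 not called against *Unc5d*-high neurons (median 0.11, all genes 16% lower and 17.7% higher).

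Compared with *Fezf2*-/Bcl11b- excitatory neurons, layer 5 neurons carried more RNA of most corticothalamic genes, among them *Nfia* and *Nfib*, and less of most callosal and upper-layer genes. In this comparison 1308 genes were higher (8.88%) and 1399 lower (9.5%), with 428 and 758 past 2-fold. Layer 5 cells were again the deeper ones, with medians of 13266.5 and 11170 against 9911 and 8541 UMIs. A limit of 0 UMIs is met more easily by shallow cells, and the part of depth in single calls was examined only by thinning. Among the 10 largest increases were *Kctd8*, *Nr4a3*, *Slit3*, *Cacna1e*, *Lrrtm4*, *Ephb1*, *Kif26a*, *Opcml* and *Islr2*. *Nr4a3*, an orphan nuclear receptor gene, was at 55 and 60.0 CPM in layer 5 and 5.91 and 3.39 in *Fezf2*-/Bcl11b- neurons (3.75 (SE 0.197, adjusted p = 2.43e-07)). *Lrrtm4*, a postsynaptic organizer, was at 389 and 460.4 against 39.4 and 41.6 CPM (3.48 (SE 0.108, adjusted p = 1.29e-08)). *Opcml*, an adhesion protein of the IgLON family, was at 1658 and 1626 against 226 and 179 CPM (3.12 (SE 0.122, adjusted p = 2.83e-08)). *Lmo4*, a LIM-only factor, was at 175 and 209 CPM in layer 5 and above every other gate, with 71 and 91.2 in *Hs3st4*-high, 129.6 and 144 in *Unc5d*-high and 34.5 and 50.5 in *Fezf2*-/Bcl11b- neurons.

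The 10 largest decreases in that comparison were *Kcnip4*, *Kif26b*, *Eomes*, *Cdk6*, *Unc5c*, *Fn1*, *Neurog2*, *Fbxl7*, *Sema5a* and *Myo10*. *Kcnip4*, a calcium-binding partner of Kv4 channels, was at 23.5 and 25.9 CPM in layer 5 and 387 and 413 in *Fezf2*-/Bcl11b- neurons (-3.92 (SE 0.119, adjusted p = 1.29e-08)). Of the callosal and upper-layer list 2 were higher, 12 lower and 6 not called (median -0.995), with *Inhba*, which encodes an activin subunit, at 15.2 and 12.9 against 80.7 and 86.1 CPM (-2.47 (SE 0.132, adjusted p = 2.5e-07)). Of the corticothalamic list 8 were higher, 3 lower and 2 not called (median 1.02), among them *Nfia*, at 1679 and 1745 against 861 and 764 CPM (1.17 (SE 0.0661, adjusted p = 3.71e-07)), and *Nfib*, at 3875 and 4144 against 2151 and 2073 CPM (1.02 (SE 0.0624, adjusted p = 5.77e-07)). The comparisons share the layer 5 sums, so their calls are not independent of each other.

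**Figure D2:**
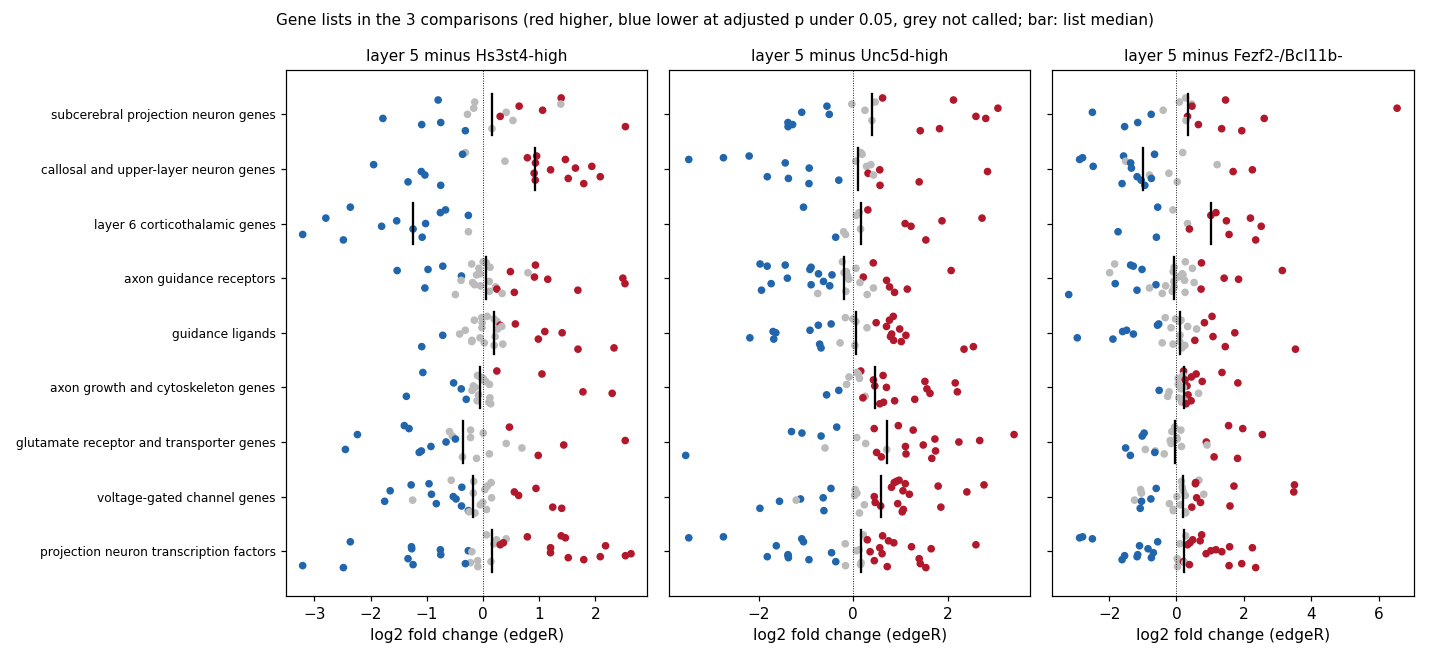
Log2 fold changes (edgeR; horizontal axes) of the tested genes of 9 lists in layer 5 minus each of the other gates. Each point is a gene, coloured where its adjusted p was under 0.05, and black bars are list medians, which lay at -1.24 for corticothalamic genes against *Hs3st4*-high neurons and at 0.71 for glutamate receptor genes against *Unc5d*-high neurons. The point at the far right is *Crym*, with 1 UMI in the *Fezf2*-/Bcl11b- sums, so that its fitted fold depends on the prior count.

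Subcerebral axons grow out of the cortex through the internal capsule, a course steered by receptors on the growth cone and by secreted and membrane-bound ligands. Of 31 tested guidance receptors, 9 were higher, 5 lower and 17 not called against *Hs3st4*-high neurons (all genes, 8.86% and 9.11%), 7, 13 and 11 against *Unc5d*-high (17.7% and 16%), and 5, 7 and 19 against *Fezf2*-/Bcl11b- neurons (8.88% and 9.5%). The 7 higher of 31 against *Unc5d*-high neurons are close to the share over all genes. *Plxna4*, a plexin that transduces semaphorin signals, was at 426 and 554 CPM in layer 5, 82.8 and 82.4 in *Hs3st4*-high, 1664 and 1784 in *Unc5d*-high and 1859.7 and 1836 in *Fezf2*-/Bcl11b- neurons. Its log2 fold changes were 2.53 ± 0.111, -1.74 ± 0.105 and -1.82 ± 0.106. *Nrp1*, the neuropilin that binds class 3 semaphorins, had 245 and 271 CPM in layer 5, again between *Hs3st4*-high (42.5 and 47) and *Unc5d*-high neurons (689 and 743), with log2 fold changes of 2.49 ± 0.118 and -1.39 ± 0.108. It exceeded *Fezf2*-/Bcl11b- neurons, at 88.1 and 118 CPM, by 1.42 ± 0.123.

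*Ephb1*, an ephrin receptor, ran the other way, at 163 and 182 CPM in layer 5 against 468 and 500.2 in *Hs3st4*-high, 38.9 and 47.7 in *Unc5d*-high and 29 and 13.6 in *Fezf2*-/Bcl11b- neurons. The layer 5 sums thus stood below the layer 6 gate and above the other two, with log2 fold changes of -1.53 ± 0.142, 2.08 ± 0.151 and 3.14 ± 0.211. *Epha4* and *Epha7* were lower in layer 5 than in all 3 other gates. *Epha4* was at 104 and 86.5 CPM against 159.9 and 145, 366 and 347 and 243 and 253, and *Epha7* at 80.8 and 78.1 CPM against 156 and 149, 158 and 159 and 166 and 179. Among the called differences of *Epha7* the log2 fold changes lay close together, at -0.98 ± 0.0698, -0.92 ± 0.069 and -1.02 ± 0.0758.

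Slit and Robo genes encode a repulsive ligand family and its receptors. *Slit3* was higher in layer 5 than in each other gate, at 231 and 289 CPM against 67.6 and 89.3 in *Hs3st4*-high, 54.8 and 53.1 in *Unc5d*-high and 27.1 and 21.2 in *Fezf2*-/Bcl11b- neurons, with log2 fold changes of 1.69 (SE 0.131, adjusted p = 3.97e-06), 2.35 (SE 0.133, adjusted p = 1.41e-07) and 3.53 (SE 0.185, adjusted p = 2.43e-07). *Slit2* was at 72.8 and 75.7 CPM, above *Hs3st4*-high neurons (16.3 and 12.2, 2.33 ± 0.114), and *Slit1* at 57.3 and 64 CPM, below them (116 and 135, -1.09 ± 0.128). The 3 Slit genes thus differed in direction between the deep-layer gates. *Robo1* was at 1490.3 and 1549 CPM and above *Unc5d*-high neurons (723 and 727, 1.15 ± 0.0791), whereas *Robo2*, at 1062 and 1065 CPM, was below them (4328 and 4302, -1.94 ± 0.129) and above *Hs3st4*-high neurons (377 and 264, 1.69 ± 0.13). The netrin receptor gene *Dcc* was at 3015 and 2916 CPM, with log2 fold changes of 0.43 ± 0.0543 against *Unc5d*-high and 0.74 ± 0.0549 against *Fezf2*-/Bcl11b- neurons, and was not called against *Hs3st4*-high neurons (0.06 ± 0.0542, adjusted p = 0.508). Over all 27 ligands tested, 7 were higher, 2 lower and 18 not called against *Hs3st4*-high neurons (all genes, 8.86% and 9.11%). The counts were 12, 9 and 6 against *Unc5d*-high (17.7% and 16%), and 7, 7 and 13 against *Fezf2*-/Bcl11b- neurons (8.88% and 9.5%). The 2 lower of 27 against *Hs3st4*-high neurons are close to the share over all genes.

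Of 23 axon growth and cytoskeleton genes, 15 were higher, 2 lower and 6 not called against *Unc5d*-high neurons (median 0.46, all genes 17.7% and 16%). The counts were 11, 1 and 11 against *Fezf2*-/Bcl11b- neurons (median 0.21, all genes 8.88% and 9.5%). They were 4, 5 and 14 against *Hs3st4*-high neurons (median -0.05, all genes 8.86% and 9.11%). *Gap43*, a growth cone protein, was at 593 and 607 CPM in layer 5 and 215 and 227 in *Unc5d*-high neurons (1.52 (SE 0.0681, adjusted p = 2.36e-08)), and was not called against *Hs3st4*-high neurons, at 548 and 581 CPM (0.05, adjusted p = 0.674). *Nefm*, the medium neurofilament chain, was at 51.4 and 54.3 CPM in layer 5 against 9.60 and 11.3 in *Hs3st4*-high (2.30 (SE 0.22, adjusted p = 2.04e-05)) and 13.1 and 23.3 in *Unc5d*-high neurons (1.63 (SE 0.193, adjusted p = 5.49e-05)). *Nefl*, the light chain, was at 11.9 and 15.3 against 2.12 and 5.72 CPM in *Hs3st4*-high neurons (1.78 ± 0.361), and the heavy chain gene *Nefh* was under 1 CPM in layer 5 (0.293 and 0.402). The third intermediate filament gene of young axons, *Ina*, went the other way against *Hs3st4*-high neurons, at 291 and 299.9 against 413 and 412 CPM (-0.52 ± 0.0805).

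Of 23 glutamate receptor and transporter genes, 14 were higher, 5 lower and 4 not called against *Unc5d*-high neurons (median 0.71, all genes 17.7% and 16%). Against *Hs3st4*-high neurons 4 were higher, 9 lower and 10 not called (median -0.36, all genes 8.86% and 9.11%). Against *Fezf2*-/Bcl11b- neurons the counts were 6, 5 and 12 (median -0.05, all genes 8.88% and 9.5%). *Grin2b*, the NMDA receptor subunit that prevails before birth, was at 789.6 and 848 CPM in layer 5, 1213 and 1297 in *Hs3st4*-high and 163 and 203 in *Unc5d*-high neurons, with log2 fold changes of -0.66 ± 0.0978 and 2.24 ± 0.103. *Grin2a*, the subunit that gains weight after birth, was at 34.6 and 43.6 CPM against 6.09 and 7.07 in *Hs3st4*-high neurons (2.53 (SE 0.193, adjusted p = 3.38e-06)) and 6.78 and 6.05 in *Unc5d*-high neurons (2.68 (SE 0.179, adjusted p = 5.44e-07)). It was not called against *Fezf2*-/Bcl11b- neurons, at 59.1 and 36.9 CPM. *Gria1*, an AMPA receptor subunit, followed *Grin2b*, at 164 and 178 CPM in layer 5, 414 and 462 in *Hs3st4*-high and 88.9 and 97 in *Unc5d*-high neurons.

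Of 29 voltage-gated channel genes 17 were higher, 6 lower and 6 not called against *Unc5d*-high neurons (median 0.58, all genes 17.7% and 16%). The counts were 9, 4 and 16 against *Fezf2*-/Bcl11b- neurons (median 0.19, all genes 8.88% and 9.5%). They were 5, 11 and 13 against *Hs3st4*-high neurons (median -0.17, all genes 8.86% and 9.11%). *Kcnq5*, a subunit of the M current, was highest in layer 5, at 634 and 696 CPM against 306 and 241 in *Hs3st4*-high, 192 and 196 in *Unc5d*-high and 511 and 526 in *Fezf2*-/Bcl11b- neurons (1.24 ± 0.101, 1.86 ± 0.102 and 0.45 ± 0.101). *Cacna1e*, the R-type calcium channel, was at 293 and 308 CPM, below *Hs3st4*-high (669.6 and 748, -1.28 ± 0.0962) and above *Unc5d*-high neurons (42.1 and 51, 2.77 ± 0.104). *Scn1a*, a sodium channel gene, was at 18.3 and 17.6 CPM, lower than in *Unc5d*-high neurons (77.7 and 71.3, -1.97 ± 0.1) and higher than in *Hs3st4*-high neurons (6.83 and 6.34, 1.40 ± 0.135).

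Of 34 projection neuron transcription factor genes, which overlap the lists above, 13 were higher, 11 lower and 10 not called against *Hs3st4*-high neurons (all genes, 8.86% and 9.11%). The counts were 15, 12 and 7 against *Unc5d*-high (17.7% and 16%), and 16, 12 and 6 against *Fezf2*-/Bcl11b- neurons (8.88% and 9.5%). *Id2*, an inhibitor of basic helix-loop-helix factors, was above each other gate, at 602 and 571 CPM against 457 and 429, 348 and 334 and 455 and 493 (0.36 ± 0.0702, 0.86 ± 0.0705 and 0.40 ± 0.0722). *Lhx2*, a LIM-homeodomain factor, was at 103 and 96.8 CPM, above *Hs3st4*-high (19.9 and 22.9, 2.18 ± 0.0946) and below *Unc5d*-high neurons (329 and 322, -1.63 ± 0.0819). *Mef2c*, a factor of maturing neurons, was at 454 and 453 CPM in layer 5, 1084 and 1042 in *Hs3st4*-high, 142 and 162 in *Unc5d*-high and 869 and 873 in *Fezf2*-/Bcl11b- neurons.

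At least 1 UMI of the corticothalamic factor *Tbr1* was detected in 63.2% of members in embryo 4 and 56.7% in embryo 5. Detection depends on depth, so a member without a *Tbr1* UMI cannot be taken to lack the RNA. After thinning each cell to 3000 UMIs, which left out 2 and 8 shallower members, these shares were 27.9% and 25.4%. In GABA-type cells (at least 5 *Gad1* plus *Gad2* and at most 1 *Neurod2* plus *Neurod6* UMIs), which should lack *Tbr1* and gauge free RNA, it was in 5.18% and 3.38% of cells at medians of 7483 and 7079 UMIs, and in 1.49% and 1.40% after thinning. *Bcl11b* and *Tbr1* were found together in 61.7% and 56.0% of members, and in 22.7% and 19.5% after thinning. The rule used *Bcl11b*, which 97.4% and 98.0% of members held, so before thinning the joint share mostly repeats that of *Tbr1*.

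The members were not uniform in the deep-layer, upper-layer and guidance genes when grouped by their *Bcl11b* UMIs, which the rule used as part of a sum. The groups were made from the same counts, so their levels are a description without a test, and cells of 1 embryo share a library. Members with 0 *Bcl11b* UMIs were 2.60% and 2.01%, those with 1 to 2 were 11.3% and 10.9%, with 3 to 5 19% and 21.4%, and with 6 or more 67.1% and 65.8%. *Sox5* went from 2814 and 3048 CPM at 1 to 2 *Bcl11b* UMIs to 4691 and 4631 CPM at 6 or more. *Cdh13*, an adhesion gene of subcerebral neurons, went from 917 and 992 to 1629 and 1689.6 CPM and *Cacna1e* from 108 and 88.3 to 362 and 393 CPM. *Zfpm2* went from 121 and 66.8 to 295 and 341 CPM and *Ephb1* from 62 and 56.5 to 198 and 219 CPM. The genes named here were thus higher in the members with the most *Bcl11b* UMIs, but not all genes of their lists were. *Pou3f1*, of the subcerebral list, went from 109 and 103 to 48.0 and 34.6 CPM. *Foxp2*, of the corticothalamic list, fell from 219 to 142 CPM in embryo 4 and rose from 102 to 162 CPM in embryo 5.

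*Plxna4* ran opposite, from 951 and 1228 CPM at 1 to 2 *Bcl11b* UMIs to 260.1 and 385 CPM at 6 or more. *Pou3f2* went from 132 and 101 to 61 and 55.5 CPM, *Cux1* from 135 and 149 to 44.2 and 38.6 CPM, and the ephrin receptor gene *Epha3* from 1044 and 1075 to 711 and 536 CPM. *Rorb*, of the same callosal and upper-layer list, rose from 113 and 72.9 to 159 and 233 CPM. The intermediate progenitor marker *Eomes* went from 93.0 and 37.0 to 8.27 and 2.94 CPM. The level of *Plxna4* in the layer 5 sums was therefore an average over members with low and high values. *Slit3* showed no such order, at 209 and 227 CPM at 1 to 2, 297 and 369 at 3 to 5 and 228 and 282 at 6 or more UMIs. Deeper cells reach more *Bcl11b* UMIs, so the members were also thinned to 6000 UMIs, without the shallower cells, and grouped again, a step added after the data were seen. *Sox5* was then at 3433 and 3506 CPM at 1 to 2 and 4928 and 4765 at 6 or more UMIs, *Zfpm2* at 167 and 138 and 343 and 374, and *Plxna4* at 579 and 862 and 228 and 322.

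**Figure D3:**
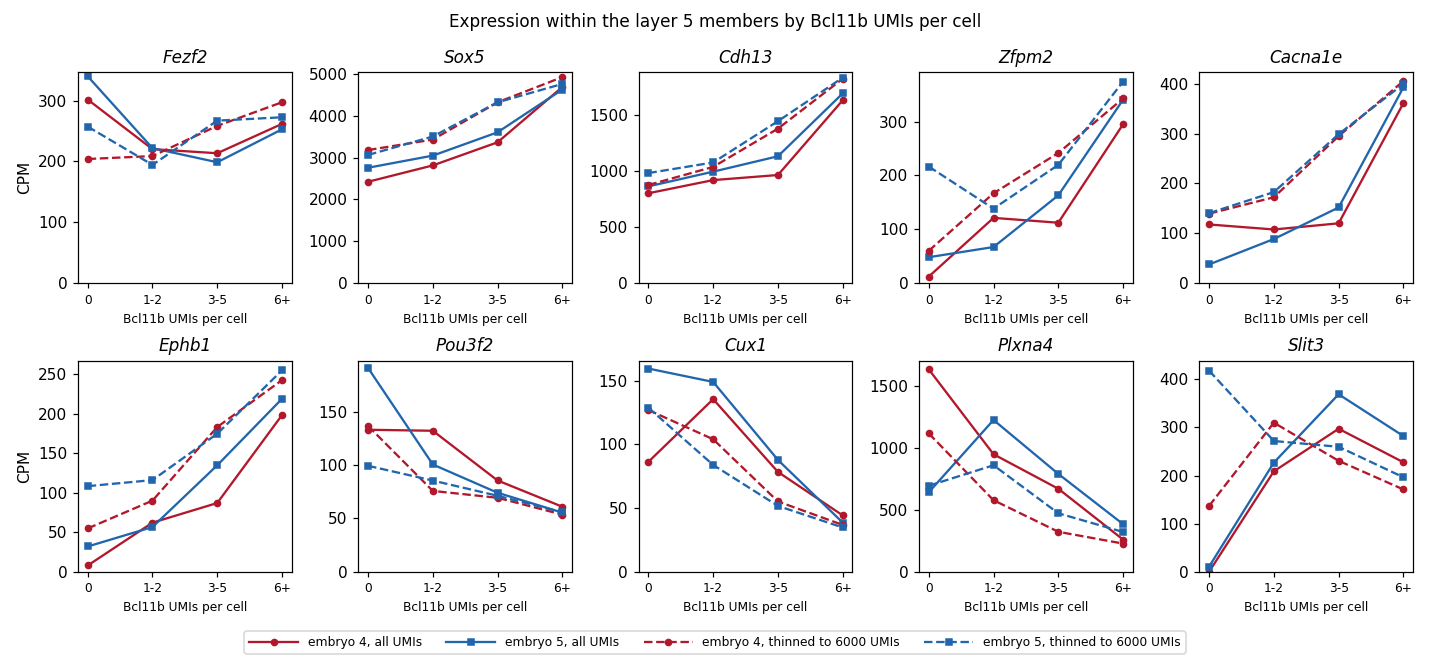
CPM (vertical axes) of 10 genes in layer 5 members grouped by their *Bcl11b* UMIs per cell (0, 1 to 2, 3 to 5, 6 or more; horizontal axes), for each embryo, with all UMIs (solid) and after thinning to 6000 UMIs (dashed). *Sox5*, *Cdh13*, *Zfpm2*, *Ephb1* and *Cacna1e* are higher and *Pou3f2*, *Cux1* and *Plxna4* lower at 6 or more than at 1 to 2 UMIs; the group at 0 holds under 3% of the members.

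At the threshold of the rule, the 48 and 58 members with a *Fezf2* plus *Bcl11b* sum of 3 had 2556 and 2517 CPM of *Sox5* and 74.9 and 70.0 CPM of *Cux2*. The 56 and 62 cells just outside, with a sum of 2, had 1581 and 2340 CPM of *Sox5* and 136 and 61.8 CPM of *Cux2*. Members with a sum of at least 10, 443 and 474 cells, had 4860 and 4742 CPM of *Sox5* and 10.5 and 12.8 CPM of *Cux2*.

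Markers of other cells were present in the layer 5 sums, most lists at lower levels than over all kept cells. That reference includes the other cell types. The rule limited *Gad1*, *Gad2* and *Slc1a3*, so lower sums of interneuron and radial glia markers follow in part from the rule. The 9 interneuron markers summed to 22.7 and 16.5 CPM against 1023 and 953 over all kept cells, and the 9 radial glia markers to 258 and 223 against 1392 and 1352 CPM. In *Hs3st4*-high neurons interneuron markers summed to 61.5 and 33.4 CPM and radial glia markers, below layer 5, to 182 and 159 CPM. Of the radial glia markers, *Pax6* and *Vim* were called higher in layer 5 than there, 0 lower and 7 not called (all genes, 8.86% and 9.11%). Striatal markers, which share *Bcl11b* as a gene of that tissue, summed to 26.4 and 33.1 CPM over 11 genes, of which *Isl1* was at 0. Over all kept cells they were at 89.7 and 93.3 CPM. Hippocampal markers summed to 228 and 208 against 889.5 and 813 CPM over 7 genes, and Cajal-Retzius markers to 61.5 and 79.8 against 231 and 227 CPM over 7. The hippocampal sums were 129 and 133 CPM in *Hs3st4*-high neurons. *Lef1* and *Zbtb20* were called higher in layer 5 than there, 0 lower and 5 not called (all genes, 8.86% and 9.11%). Subplate markers were closer to the level of all kept cells, at 129 and 138 against 168 and 169.9 CPM over 6 genes with *Moxd1* at 0. Oligodendrocyte, microglia and vascular markers summed to at most 1.51, 6.84 and 23.9 CPM. The 5 erythroid markers, 4 of them alpha or beta globin genes, were at 273 CPM in embryo 4 and 2492 CPM in embryo 5, and their part in the results was not tested. Over all kept cells they were at 991 and 1710 CPM, so that the layer 5 sum was lower in embryo 4 and higher in embryo 5, and 0 of the 5 were called in any comparison.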

How the data were processed

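The authors dissociated the cortex with papain, made 10x Genomics 3′ v3.1 libraries and counted UMIs with Cell Ranger against mm10, the GRCm38 build. The submitters' processing notes name version 7.0.0 and the file headers 7.1.0. Whether intron reads were counted is not given in the sources used here. The deposited matrices hold unnormalized UMI counts of 32285 genes in each barcode. They held no cell annotation, and no cells were clustered here. Gene coordinates came from RefSeq's GRCm38.p6 table, where 331 of 331 symbols looked up were found.

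Counts were summed per embryo and gate (8 sums) and tested in 1 fit with edgeR 4.0.16 (TMM, filterByExpr, quasi-likelihood F test; limma 3.58.1, R 4.3.3). A gene was called at an adjusted p below 0.05, and the SE was obtained by dividing the log2 fold change by the root of its F. The test was tested on simulated data. Shares have exact 95% binomial intervals (SciPy 1.17.1, numpy 2.4.6, Python 3.11.15), which cover counting error only. Doublets were scored after Scrublet in scanpy 1.11.5 and removed only in an alternative, at 0.8% per 1000 cells.

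The members, gates and gene lists were chosen with earlier results of these data known. Named genes are the gate genes, the lists, and for each comparison the 10 largest changes in each direction among called genes that moved the same way in both embryos and had a mean of at least 50 CPM in the higher gate, without rule genes or Gm and Rik symbols. All 4 sums with the same embryo number derive from that animal and are paired by it. Their deviations correlated at 0.403, 0.787 and 0.335 over 3640 genes for the *Hs3st4*-high, *Unc5d*-high and *Fezf2*-/Bcl11b- comparisons. Alternatives were a replicate block, DESeq2 1.42.0 and its size factors in edgeR, genes unfiltered, only the compared gates, other member rules and cell filters, doublets removed, thinned cells, and each embryo left out. Bins of cells thinned to 6000 UMIs and the GABA-type reference were added after the data were seen. Some genes are not reported here.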

Additional observations from a re-analysis of the deposited data

How the results depend on the processing

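Of 405 named gene changes that were called, all kept their call with the embryo as a replicate block, which gave 1888 higher and 1841 lower genes against *Hs3st4*-high, 3165 and 2975 against *Unc5d*-high and 1634 and 1622 against *Fezf2*-/Bcl11b- neurons. DESeq2 kept 382 and missed the threshold for 23. It called 799 higher and 887 lower genes against *Hs3st4*-high neurons and 1509 lower against *Unc5d*-high neurons. Cells thinned to 3000 UMIs kept 361 and missed it for 42. Thinning, which tests fewer genes at lower counts, called 650 and 856 against *Hs3st4*-high and 764 and 784 against *Fezf2*-/Bcl11b- neurons. The other alternatives each kept at least 393 and gave counts within 1.5 times of those reported. The change of *Ttr* against *Hs3st4*-high neurons turned to 0.25 with the highest doublet scores removed, and the cause was not tested. With either embryo left out, all 405 kept their sign. This leaves 1 sum per gate and no residual degrees of freedom, so no calls were counted.

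The mean share of layer 5 members, 7.22%, was 6.75% with a *Fezf2* plus *Bcl11b* sum of at least 4, 7.75% with at least 2, 5.18% with at least 2 *Fezf2* UMIs, 7.65% with the highest doublet scores removed, and 4.13% with the rule applied to cells thinned to 3000 UMIs. The rule counts UMIs, so shallow cells reach it less often. With 2 embryos, the number of animals limits every error given.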
